A study of Homo sapiens with 6 samples.

Results

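The deoxynucleotide supply enzymes are the proteins that make, phosphorylate, clean and break down the building blocks of DNA. They were taken as a list of named genes, grouped by function and not by a cut on measured values, with earlier results of these data known: RRM1, RRM2, RRM2B, TYMS, TK1, DCK, DUT, DTYMK and SAMHD1, each taken from the probe set that names that gene alone and, where a gene has more than 1 such set, from the one with the highest mean. All 9 were found among 18417 genes measured. RNA came from A375, an established human melanoma cell line, and the study compared 3 arrays of cells given 10 µM vemurafenib, an inhibitor of RAF family kinases used to treat melanoma, for 24 h with 3 arrays of cells given vehicle (0.1% DMSO) for the same time. Both groups share the line and its genotype, so each result concerns a single line, and the 3 replicates of a group came from different stocks of cells on different days. Values are log2 levels per probe set from single-colour Affymetrix arrays, and changes are given on that scale as vemurafenib minus vehicle. Array medians ran from 7.69 to 7.73. Precision is limited by having 3 arrays a group.

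Deoxynucleotides are made mainly by ribonucleotide reductase, which turns ribonucleotides into deoxynucleotides. Its large subunit RRM1 pairs with the small subunit RRM2, known to be made in S phase and destroyed around mitosis, or with the alternative small subunit RRM2B, a p53 target known to serve DNA repair and mitochondrial DNA in resting cells. Thymidine nucleotides need thymidylate synthase (TYMS), the dUTPase that provides its substrate and keeps uracil out of DNA (DUT), and thymidylate kinase (DTYMK). Salvage kinases such as TK1 and DCK recover deoxynucleosides, and SAMHD1 hydrolyses deoxynucleoside triphosphates. Several of these genes are textbook targets of E2F factors, and CCAAT boxes in cell cycle promoters are bound by NF-Y.

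The stretches upstream of 5 of the genes are shown because most of the genes moved together and their start regions could be read. They come from RefSeq (build GRCh38.p14), cover the 150 bases just before the annotated start, and run 5′ to 3′ along the gene. Capitals mark exact matches on either strand to an E2F site (TTTCCCGC, TTTCGCGC, TTTGCCGC or TTTGGCGC), a CCAAT box (CCAAT) or a cell cycle homology region, CHR (TTTGAA). RRM2 had the largest fall, TK1 is the S phase salvage kinase, TYMS and DUT fell and carry E2F letters, and SAMHD1 rose.
RRM2 (chr2:10122589-10122738, + strand): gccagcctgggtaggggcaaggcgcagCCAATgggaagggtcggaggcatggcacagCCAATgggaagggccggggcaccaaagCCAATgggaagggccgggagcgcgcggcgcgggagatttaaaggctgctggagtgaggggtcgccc
TK1 (chr17:78187053-78187202, - strand): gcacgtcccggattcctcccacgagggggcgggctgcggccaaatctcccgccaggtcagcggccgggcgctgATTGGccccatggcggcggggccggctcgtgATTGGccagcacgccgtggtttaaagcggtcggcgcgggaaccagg
TYMS (chr18:657503-657652, + strand): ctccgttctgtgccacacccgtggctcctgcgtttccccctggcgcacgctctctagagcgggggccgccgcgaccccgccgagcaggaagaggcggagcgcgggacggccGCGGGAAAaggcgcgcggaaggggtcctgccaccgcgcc
DUT (chr15:48332047-48332196, + strand): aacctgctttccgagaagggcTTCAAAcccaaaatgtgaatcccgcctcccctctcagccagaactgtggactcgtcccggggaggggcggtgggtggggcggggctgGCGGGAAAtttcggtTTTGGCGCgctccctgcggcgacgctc
SAMHD1 (chr20:36951709-36951858, - strand): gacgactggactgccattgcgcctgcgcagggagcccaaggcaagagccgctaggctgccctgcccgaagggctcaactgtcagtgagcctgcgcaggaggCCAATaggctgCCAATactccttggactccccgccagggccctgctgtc
Full windows, from 250 bases before the start to 50 after it, were read for 8 of the 9 genes. They numbered 13 in all because some genes have several starts. No window was read for RRM2B, so its motifs are not known here. RRM2 carried 3 CCAAT boxes in the window shown, starting at positions -123, -93 and -66 (counted back from the start), and none of the E2F letters. DUT carried E2F letters in opposite orientations in the window shown, starting at positions -42 and -27. For genes with several windows, the stretch shown comes from the window with the most matches. TK1 has 2 windows and DUT has 4, and for both only the window shown carried any match. By window, E2F letters were found in 3 of 13, against 3.31% of all 35116 windows. E2F letters were found in 3 of the 8 genes (TYMS, DCK and DUT) against 3.99% of all 27305 genes with a window, CCAAT boxes in 5 of 8 against 39.7%, and CHR letters in 2 of 8 (RRM1 and DUT) against 18.2%. Matches to different motifs did not overlap in these genes. SAMHD1, which rose, carried 2 CCAAT boxes, as did TK1 and DTYMK, which fell. A match is a run of letters and was not tested as a site.

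**Figure D1:**
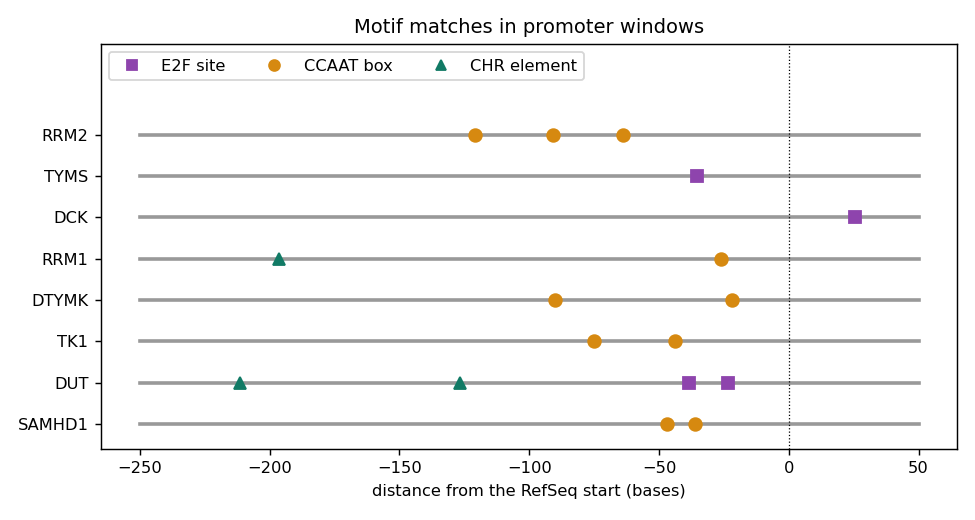
Motif matches in the promoter windows of 8 of the enzymes, from 250 bases before to 50 after the RefSeq start (x axis, in bases), with genes ordered from the largest fall (RRM2) to the rise of SAMHD1. Squares are E2F sites, circles CCAAT boxes and triangles CHR elements, and for genes with several windows the one with the most matches is drawn; RRM2 shows 3 CCAAT boxes and DUT 2 E2F sites.

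With vemurafenib, 7 of the 9 enzymes fell and 2 rose (limma, Benjamini-Hochberg adjusted p threshold 0.05 over all genes). RRM2, TYMS, DCK, RRM1, DTYMK, TK1 and DUT were the fallers, by 5.44-fold for RRM2 and by 1.40-fold for DUT at the ends of the range. The small subunit RRM2B rose 1.34-fold and the triphosphohydrolase SAMHD1 1.27-fold. Over all genes 45.5% passed the same threshold (22.2% of all genes as falls and 23.2% as rises), so passing is common here. RRM2 and TYMS, 2 of the 9, fell at least 2-fold and passed, as did 2.62% of all genes. After centring of each array on its gene median, a choice added after the data were seen, the split over all genes was 3682 higher and 5630 lower, against 4281 and 4090, while the enzymes stayed at 2 higher and 7 lower. The median change of the 9 was -0.84, against -0.05 over all genes. The 3 vemurafenib arrays lay wholly apart from the 3 vehicle arrays for all 9 enzymes, as they did for 55.4% of all genes. Each group mean of the 9 was above 6.87, the upper edge of the dimmest 25% of genes. In bulk RNA, fewer cells of a kind (such as cells in S phase) and less RNA per cell cannot be told apart.

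**Figure D2:**
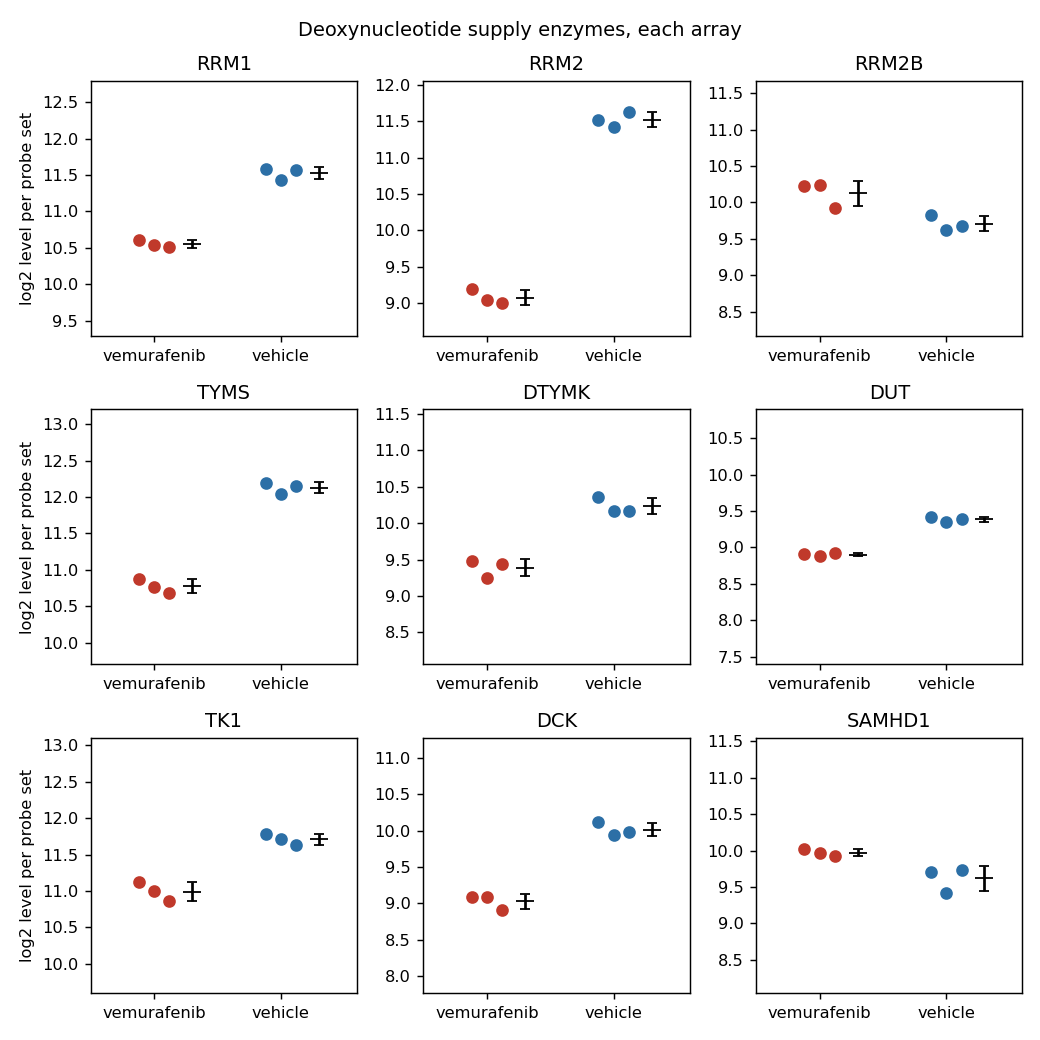
Log2 level per probe set of each enzyme in each array (points) with the group mean and SD (black bars, n = 3), vemurafenib left of vehicle; every panel spans the same number of log2 units around its own centre, so distances compare across panels and heights do not. The groups do not overlap in any panel, and the vemurafenib points are higher for RRM2B and SAMHD1 and lower for the other 7.

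Among the subunits of ribonucleotide reductase, RRM2 moved most. RRM2 (probe set 8040223) stood at 9.19, 9.04 and 9.01 in the vemurafenib arrays, against 11.52, 11.43 and 11.62 in the vehicle arrays. The lowest vehicle array was still far above the highest vemurafenib array. The change was -2.44 (SE 0.08, 95% interval -2.62 to -2.26; limma adjusted p 2.6e-09), and 0.163% of all genes had a larger fall, so RRM2 was number 31 of 18417 by size of fall. RRM1 (7937915), which carries the catalytic site, stood at 10.61, 10.53 and 10.51 with vemurafenib, against 11.58, 11.43 and 11.57 with vehicle. Its change was -0.98 (SE 0.07, 95% interval -1.14 to -0.81; limma adjusted p 9.43e-07), a 1.97-fold fall. RRM2B (8152133) stood at 10.22, 10.23 and 9.93 with vemurafenib, against 9.82, 9.62 and 9.68 with vehicle. Its groups were apart by a small margin, since vemurafenib replicate 3 lay close to vehicle replicate 1. RRM2B rose by 0.42 (SE 0.10, 95% interval 0.21 to 0.63; limma adjusted p 0.00389), and 13.8% of all genes had a larger rise.

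The subunits changed by unequal amounts within the same arrays. The difference RRM2 minus RRM1, taken within each array, averaged -1.47 ± 0.05 with vemurafenib and -0.005 ± 0.06 with vehicle (SD, n = 3 each; exact permutation test, two-sided p = 0.1, the smallest that 3 against 3 arrays can give). RRM2 lost 2.76-fold against RRM1 between the groups (-1.47 on the log2 scale). RRM2 minus RRM2B averaged -1.05 ± 0.14 with vemurafenib and 1.82 ± 0.13 with vehicle (SD, n = 3 each; exact permutation test, two-sided p = 0.1). This shift of the small subunits against each other came to -2.86 on the log2 scale or 7.28-fold. These are changes of ratios of array values, and the height of one probe set says nothing about the amount of RNA relative to another. Of 3 such pairs, each had p = 0.1 after Benjamini-Hochberg adjustment in the exact permutation tests, so none could pass the 0.05 threshold.

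All 3 enzymes of the thymidylate route fell. TYMS, which methylates dUMP to dTMP (probe set 8019842), stood at 10.87, 10.77 and 10.68 with vemurafenib, against 12.19, 12.04 and 12.15 with vehicle. The 2.56-fold fall (-1.35, SE 0.08, 95% interval -1.53 to -1.18; limma adjusted p 1.35e-07) was the second largest among the 9. DTYMK, which phosphorylates dTMP (8060286), stood at 9.48, 9.25 and 9.44 with vemurafenib, against 10.36, 10.17 and 10.17 with vehicle. It changed by -0.84 (SE 0.09; limma adjusted p 1.07e-05), or 1.79-fold. DTYMK also has another probe set (8077262) whose deposited values were the same in all 6 arrays, so it adds no separate measurement. DUT (7983594) stood at 8.91, 8.88 and 8.92 with vemurafenib, against 9.42, 9.35 and 9.39 with vehicle. Its replicates were the tightest of the 9 (SD 0.02 with vemurafenib, 0.03 with vehicle), and its fall had the smallest estimate, at -0.49 (SE 0.07, 95% interval -0.63 to -0.34; limma adjusted p 0.000108). The deposited value is 1 level per probe set and does not separate the nuclear and mitochondrial forms of dUTPase.

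Both cytosolic salvage kinases fell. TK1, the thymidine kinase of dividing cells (probe set 8018849), stood at 11.12, 10.99 and 10.86 with vemurafenib, against 11.79, 11.71 and 11.64 with vehicle. The fall was 1.65-fold (-0.72, SE 0.08, 95% interval -0.90 to -0.54; limma adjusted p 2.85e-05). DCK, which phosphorylates deoxycytidine and purine deoxynucleosides and activates several nucleoside drugs (8095574), stood at 9.09, 9.09 and 8.91 with vemurafenib, against 10.12, 9.94 and 9.98 with vehicle. DCK fell 1.98-fold (-0.99, SE 0.08, 95% interval -1.17 to -0.81; limma adjusted p 1.95e-06). Within arrays, TK1 minus DCK averaged 1.96 ± 0.06 with vemurafenib and 1.69 ± 0.06 with vehicle (SD, n = 3 each; exact permutation test, two-sided p = 0.1), so the change of TK1 was 0.27 less negative.

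SAMHD1, the enzyme that removes deoxynucleoside triphosphates (probe set 8066117), stood at 10.02, 9.97 and 9.93 with vemurafenib, against 9.70, 9.42 and 9.74 with vehicle. Vehicle replicate 2 was the low array of its group, and the vehicle SD (0.17) was larger than the vemurafenib SD (0.05). SAMHD1 rose by 0.35 (SE 0.09, 95% interval 0.15 to 0.55; limma adjusted p 0.00788), and 16.5% of all genes had a larger rise. Without vehicle replicate 2 the rise was 0.25 (limma adjusted p 0.0178).

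**Figure D3:**
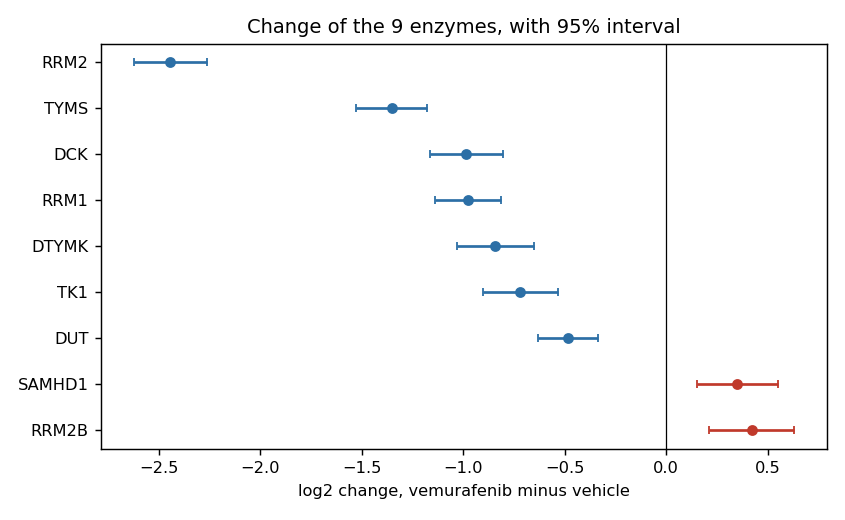
Log2 change of each enzyme (x axis, vemurafenib minus vehicle) with its 95% interval from limma, ordered from the largest fall to the largest rise. Blue marks falls and red marks rises past the threshold; RRM2 at -2.44 stands apart from TYMS at -1.35, while the intervals of DCK, RRM1, DTYMK and TK1 overlap, as do those of TK1 and DUT.

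The order of the changes ran from RRM2 (-2.44) through TYMS (-1.35), DCK (-0.99), RRM1 (-0.98), DTYMK (-0.84), TK1 (-0.72) and DUT (-0.49) to SAMHD1 (0.35) and RRM2B (0.42). The 95% interval of RRM2 lay wholly below that of TYMS, and that of TYMS lay below that of RRM1. DCK, RRM1, DTYMK and TK1 had overlapping intervals, as did TK1 and DUT, and SAMHD1 and RRM2B. Overlap of separate intervals is not a test of order. Within these sets only TK1 and DCK were compared array by array, with a difference of 0.27 (exact permutation test, two-sided p = 0.1). Among all genes, 1.17% had a larger fall than TYMS, 2.71% than DCK, 2.77% than RRM1, 3.65% than DTYMK, 4.98% than TK1 and 9.11% than DUT.

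**Figure D4:**
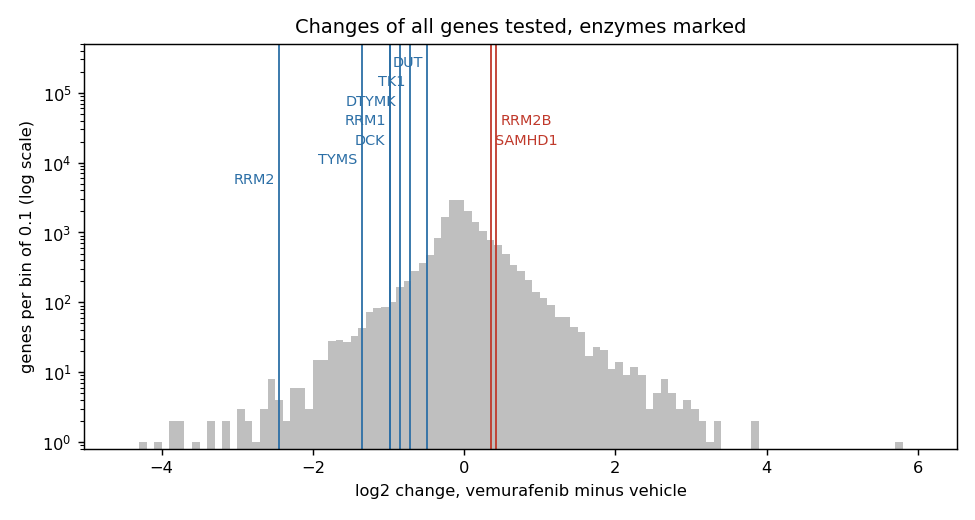
Number of genes (y axis, log scale) by log2 change (x axis, bins of 0.1, vemurafenib minus vehicle) for all 18417 genes, with a line at the change of each enzyme. RRM2 lies in the far lower tail at -2.44, and RRM2B and SAMHD1 lie on the upper shoulder at 0.42 and 0.35.

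The wider set of genes that handle deoxynucleotides was split. Of 34 further enzymes and carriers, 28 were measured, of which 6 rose, 6 fell and 16 did not pass the threshold, with a median change of -0.06 and 42.9% called, against 45.5% over all genes. The other 6 are not analysed here. PNP, the purine nucleoside phosphorylase that breaks down deoxyguanosine and deoxyinosine, stood at 9.35, 9.31 and 9.41 with vemurafenib, against 10.90, 10.75 and 10.89 with vehicle. It fell 2.80-fold (-1.48, SE 0.07, 95% interval -1.65 to -1.32; limma adjusted p 4.37e-08). SLC29A1, the equilibrative transporter that carries nucleosides across the plasma membrane, stood at 9.60, 9.39 and 9.45 with vemurafenib, against 10.85, 10.74 and 10.70 with vehicle, and fell 2.43-fold (-1.28; limma adjusted p 2.39e-07). SLC25A33, a mitochondrial pyrimidine nucleotide carrier, fell by 0.76 on the log2 scale, and DCTPP1, which hydrolyses dCTP and its modified forms, fell by 0.71. NT5C3A and UPP1, both of pyrimidine breakdown, changed by -0.26 and -0.25.

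The 6 rises reached at most 1.57-fold. ADA, the deaminase of adenosine and deoxyadenosine, stood at 10.15, 10.25 and 10.01 with vemurafenib, against 9.54, 9.41 and 9.50 with vehicle, a rise of 0.65 (SE 0.08; limma adjusted p 5.28e-05). AK1, an adenylate kinase, rose by 0.52, NME4, the mitochondrial nucleoside diphosphate kinase, by 0.33, DNPH1, which splits deoxynucleoside monophosphates, by 0.29 and CDA, cytidine deaminase, by 0.27. TK2, the thymidine kinase of mitochondria, rose by 0.50 (SE 0.08; limma adjusted p 0.000324). Genes that did not pass included DCTD, the dCMP deaminase (-0.06, 95% interval -0.22 to 0.10), SHMT1 (0.05) and SHMT2 (-0.05), which supply one-carbon units, and the kinases GUK1 (0.02) and CMPK1 (-0.18, limma adjusted p 0.0912).

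Genes that regulate these enzymes were mostly lower with vemurafenib. Of 14 listed, 13 were measured, of which 12 fell and 0 rose, with a median change of -1.22, beside 22.2% of all genes that fell. E2F1, a transcriptional activator of S phase genes, stood at 8.23, 8.47 and 8.72 with vemurafenib, against 10.06, 10.07 and 10.09 with vehicle, and fell 3.03-fold (-1.60, SE 0.11; limma adjusted p 4.14e-07). The other E2F genes listed also fell, with E2F7 at -1.79, E2F8 at -1.68, E2F2 at -1.07 and E2F3 at -0.67. The vemurafenib mean of E2F2 (6.64) lay within the dimmest 25% of genes, where background limits the change. CDK1, CCNA2 and CDK2, kinase and cyclin genes whose products phosphorylate and so restrain SAMHD1, changed by -1.71, -1.33 and -1.22. CCNF, the cyclin F gene whose product marks RRM2 for destruction, changed by -1.26 (SE 0.13; limma adjusted p 1.19e-05). CHEK1 changed by -0.91, CCNE1 by -0.66 and ATR by -0.25, and ATM, whose kinase acts on RRM2B protein, stood at 0.19 (limma adjusted p 0.0989), and passed as a rise of 0.25 only without vemurafenib replicate 3 (limma adjusted p 0.0362).

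**Figure D5:**
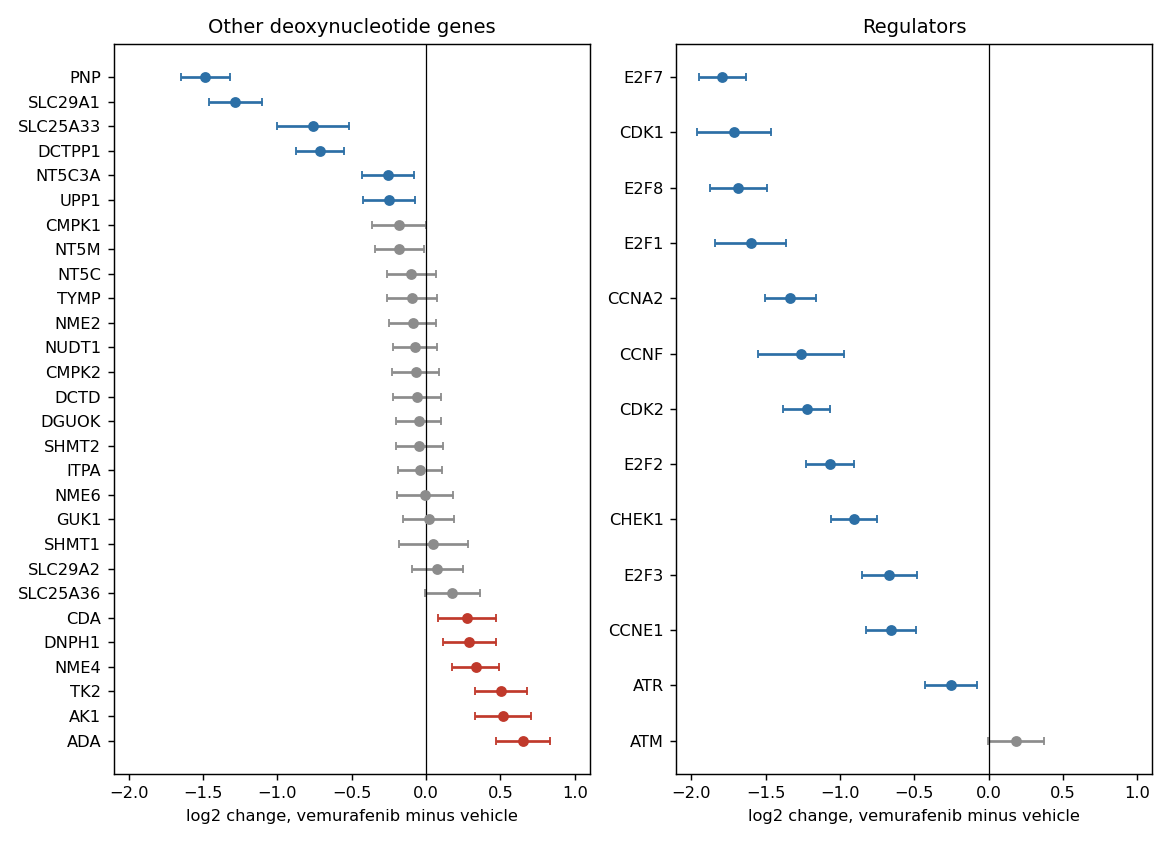
Log2 change (x axis, vemurafenib minus vehicle) with 95% interval of 28 further deoxynucleotide genes (left) and 13 regulators (right). Blue marks falls, red rises and grey genes that did not pass; the left panel splits 6 to 6 around 0 with PNP lowest at -1.48, whereas 12 of the 13 regulators lie below 0 and passed.

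Genes of the replication fork and of its loading were lower too. All 13 listed (among them PCNA, the MCM helicase subunits and CDC45) fell, beside 22.2% of all genes, with a median change of -1.63 and a range of -2.54 to -0.90. RRM2 (-2.44) lay near the lower end of that range, TYMS (-1.35), DCK (-0.99) and RRM1 (-0.98) lay in its upper part, and DTYMK, TK1 and DUT lay above it. Whether the enzymes differ from the replication genes as a set was not tested.

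By distance between profiles over the 6 arrays, each taken as log2 values minus the vehicle mean, the 5 genes nearest to RRM2 were SLC20A1, TLR4, SLCO4A1, CCND1 and CDC25A, at distances of 0.196 to 0.256 and with changes of -2.44 to -2.57. The 5 nearest to RRM2B were ZNF214, ZNF383, ADAMTS6, LTA4H and IL31RA, at distances of 0.063 to 0.113. With 2 groups of arrays, such nearness reflects mainly a like size of change.

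The identity of the cells was checked against markers. Of 7 measured pigment cell markers, MITF, SOX10, S100B and S100A1 were above the dimmest 25% of genes in both groups, and PMEL, MLANA and TYR were not. All 4 endothelial markers and the leukocyte markers PTPRC, CD3E and CD14 were within the dimmest 25%. In both groups 4 of 6 fibroblast markers, 3 of 5 keratinocyte markers and 1 of 4 leukocyte markers (LYZ) were above it. The summed level of the fibroblast markers (log2 of the sum of 6 genes) ran from 10.93 to 11.13 with vemurafenib, against 10.23 to 10.43 with vehicle, as DCN, LUM and PDGFRB rose and COL1A1 (0.01), COL1A2 (-0.15) and PDGFRA (-0.24) did not pass the threshold. The summed pigment cell level ran from 12.99 to 13.10 with vemurafenib, against 12.46 to 12.48 with vehicle, the keratinocyte level (5 genes, 0 past the threshold) from 9.77 to 10.02 against 9.74 to 9.91, and the leukocyte level, led by LYZ, from 9.76 to 10.0 against 10.47 to 10.55. Their part in the changes of the enzymes was not tested.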

How the data were processed

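RNA of 6 cultures, 3 per group, was measured on single-colour Affymetrix arrays. The authors deposited 1 log2 value per probe set and array, made with RMA and Partek, per the submitters' processing notes, which give no versions. RMA as usually run corrects background, quantile normalizes and summarizes probes, so large folds are understated and a shift in total RNA per cell would not be seen. A genome build is not given in the sources used here. The table held 33297 probe sets, of which 19460 named 1 gene, 1754 several and 12083 none, and 18417 genes remained after the brightest set per gene was kept (769 genes had more than 1), with no filter on dim genes. Names came from the platform annotation, and 19429 matched a current gene table by identifier with 0 updates.

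Groups were compared with limma 3.58.1, run in R 4.3.3 (lmFit, eBayes, group as the only term, 2-sided, Benjamini-Hochberg over all genes, threshold 0.05, prior degrees of freedom 7.08), checked on simulated data. Pairs of genes were compared by exact permutation (scipy 1.17.1). Other settings tried were a block on the replicate number (fixed, or random with statmod 1.5.0), array medians set equal, quantile normalization run again, dim genes left out, probe sets averaged, array weights, an intensity trend, each array left out and a 0.01 threshold. Centring on gene medians was added after the data were seen. The members and lists were chosen with earlier results of these data known. Named genes were the 9 enzymes, genes of the 3 lists (further enzymes, regulators, replication genes) by size among those that passed, examples that did not pass, and the 5 nearest profiles of RRM2 and RRM2B.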

Additional observations from a re-analysis of the deposited data

How the results depend on the processing

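All 9 enzymes kept their direction and their side of the threshold in each of the 17 alternative settings, 153 values in all. The blocks, dim-gene filters, averaged probe sets, intensity trend and 0.01 threshold left the estimate of each enzyme unchanged. In those settings its direction could not differ. RRM2 ran from -2.51 to -2.39 and RRM2B from 0.36 to 0.52 (highest limma adjusted p 0.0192), and SAMHD1 from 0.25 to 0.41 (highest limma adjusted p 0.0312, without vemurafenib replicate 1). The count of further enzymes past the threshold ran from 8 (at a threshold of 0.01) to 14, that of regulators from 10 to 12 and that of all genes from 5960 to 9718, the lowest of both without the dimmest 50% of genes, where 11 regulators and 9208 genes were tested, and all 13 replication genes passed in each. The difference RRM2 minus RRM1 ran from -1.51 to -1.44, RRM2 minus RRM2B from -2.93 to -2.79 and TK1 minus DCK from 0.23 to 0.33. Same-numbered arrays had correlations of deviations of 0.142, -0.184 and -0.251, so the numbers were not taken as pairs. Between arrays of different numbers the correlations ran from -0.143 to 0.279. The highest were 0.279 for vemurafenib replicate 3 with vehicle replicate 2 and 0.225 for vemurafenib replicate 2 with vehicle replicate 3. Together with replicate 1 of both groups (0.142), these highest values match each array once. A pairing across numbers was not tested. The lettered batches of the design text could not be assigned to 5 of the arrays, so the pairing it describes was not used in the main fit. With the replicate number as a block, 7606 genes passed in place of 8371, and all 9 enzymes passed. So did 11 of the further enzymes in place of 12, 11 regulators in place of 12 and 13 replication genes. Taken between same-numbered arrays, the pair differences average to the unblocked values by construction (-1.47, -2.86 and 0.27). Their SDs were 0.10, 0.14 and 0.11. Arrays of 3 per group limit the exact tests to a smallest p of 0.1, and log2 levels of RMA understate large folds.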

Other observations

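Kinases of deoxynucleosides in the cytosol and in mitochondria gave different values, pairs chosen after the values were seen and not tested as a difference. Thymidine is phosphorylated by TK1 in the cytosol, where the change was -0.72, and by TK2 in mitochondria, which stood at 9.27, 9.22 and 9.21 with vemurafenib, against 8.83, 8.58 and 8.78 with vehicle, a change of 0.50. Purine deoxynucleosides and deoxycytidine are phosphorylated by DCK (-0.99), while the mitochondrial deoxyguanosine kinase DGUOK stood at 11.02, 10.98 and 10.91 with vemurafenib, against 11.01, 11.02 and 11.03 with vehicle (change -0.05, 95% interval -0.20 to 0.10; limma adjusted p 0.575). The groups overlapped for DGUOK and lay apart for TK2. Not every pair differed in this way. SHMT1 (0.05) and mitochondrial SHMT2 (-0.05), NT5C (-0.10) and mitochondrial NT5M (-0.18), and CMPK1 (-0.18) and mitochondrial CMPK2 (-0.07) did not pass the threshold. Among the nucleoside diphosphate kinases, mitochondrial NME4 rose by 0.33 (limma adjusted p 0.00246). NME2 (-0.09, limma adjusted p 0.33) and NME6 (-0.01, limma adjusted p 0.96) did not pass.

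Consecutive steps of purine deoxynucleoside breakdown also went opposite ways. ADA, which deaminates deoxyadenosine to deoxyinosine, rose 1.57-fold, and PNP, which splits deoxyinosine, fell 2.80-fold. Of the plasma membrane nucleoside transporters on the list of further enzymes and carriers, SLC29A1 fell 2.43-fold and SLC29A2 stood at 0.08 (limma adjusted p 0.454).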
